A study of Mus musculus with 8 samples.

Results

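Most of the G protein-coupled receptors that mice name *Gpr* plus a number are orphans, receptors whose natural ligand is unknown or still debated. A receptor of this family spans the membrane several times and, when active, switches on a G protein, and the alpha subunit of that G protein sets the cellular response. Gs-type subunits stimulate adenylyl cyclases and raise cyclic AMP, Gi-type subunits lower it, and receptor kinases and arrestins then end the signal. The hypothalamus, where many peptides and metabolites are sensed, uses a large number of such receptors in the control of feeding, body temperature, and hormone release.

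The receptors were taken as all array probes whose RefSeq accession belongs to a mouse gene named *Gpr* followed only by digits, with *Gpr17*, *Gpr34*, *Gpr50*, and *Gpr84* left out. This gave 67 probes of 61 genes among 55681 probes on the array, and 26762 of all probes had a gene name through RefSeq. The annotation holds 66 such genes after the exclusions, and 5 of them, among which were *Gpr19*, *Gpr61*, *Gpr62*, and *Gpr155*, had no probe by this rule. A few proteins that carry the name are not classical G protein-coupled receptors, and they are described as a group of their own.

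The expression profiles came from the arcuate, ventromedial, dorsomedial, and lateral nuclei of the hypothalamus (Arc, VMH, DMH, and LH), cut out by laser microdissection from 2 female C57BL/6J mice at 3 months of age, for which the labels give the strain as C57BL/6. The labels name no treatment or genetic change for any sample, so the 4 groups differ by nucleus only, and each group had 2 arrays (Arc1 and Arc2, VMH1 and VMH2, DMH1 and DMH2, LH1 and LH2). The total RNA was amplified with the WTA2 whole transcriptome kit before labeling, and 1 slide carried all 8 arrays. Which arrays came from the same mouse is not stated in the sources used here, so p-values measure the spread between these samples, which may be partly technical.

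The nuclei were checked against their markers. The mean signals of *Agrp*, *Npy*, *Pomc*, and *Kiss1* were highest in the Arc, those of *Nr5a1* and *Fezf1* in the VMH, those of *Prdm13* and *Npvf* in the DMH, and those of *Hcrt* and *Pmch* in the LH, and all but *Npvf* passed the limma F-test, with 1 of the 2 probes of *Kiss1*. The neurons that make *Hcrt* and *Pmch* are best known from the LH, but *Hcrt* also had signals of 55939.9 and 51283 in the DMH, against 105972 and 116750.0 in the LH, and *Pmch* had 16253 and 11631 in the DMH, against 17650.1 and 17005 in the LH. Replicate arrays correlated at 0.971 to 0.981 over all probes tested in the Arc, VMH, and DMH but at 0.938 in the LH, where LH2 correlated at 0.954 with DMH2. Over the receptors alone, LH1 and LH2 correlated at 0.942 and LH2 and DMH2 at 0.940, so the receptor differences from the LH described here are, where they passed, also given without each of its arrays.

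All values below are signal intensities after each array was divided by its 75th percentile, and a probe counted as measured on an array when the scanner software called it well above background. Signals of different probes cannot be compared, because each probe binds with its own efficiency. Of the 67 probes, 26 were measured on all 8 arrays, 15 on 1 to 7 arrays, and 26 on no array, and 21 genes had no probe measured anywhere. The limma tests covered the probes measured on both arrays of at least 1 nucleus, which were 38 receptor probes of 38 genes, or 56.7% of the receptor probes, against 64.4% of all probes with a gene name. Of the 29 probes not tested, 3 were measured on some arrays, namely *Gpr55* on VMH2, the second probe of *Gpr25* on DMH2, and *Gpr182* on DMH2 and LH1. A receptor that entered the tests only through the nucleus where it was high had to differ to some degree, so the counts below describe the probes tested and not all receptors.

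By the limma F-test across the 4 nuclei, 8 of the 38 receptors differed at an adjusted p under 0.05, against 8.34% of all 28896 probes tested. Among them were *Gpr149*, *Gpr39*, *Gpr37*, *Gpr179*, *Gpr153*, *Gpr165*, and *Gpr12*. The VMH had the highest mean for 5 of them, the Arc for 2, the LH for 1, and the DMH for 0. Of all probes that differed, 40.2% were highest in the LH, 29.1% in the VMH, 23.2% in the Arc, and 7.55% in the DMH. Of the 38 receptors tested, the VMH and the Arc each had the highest mean for 13, the DMH for 7, and the LH for 5. Among the 26 receptors measured on every array, 4 differed, against 6.51% of the 22747 probes measured on every array, and at an unadjusted p under 0.05 there were 21 receptors of the 38, against 24.6% of all probes tested. The count was sensitive to single arrays of the Arc and the VMH, with 3 receptors without Arc1, 5 without Arc2, 4 without VMH1, and 5 without VMH2, and it was 11 without either LH array.

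**Figure D1:**
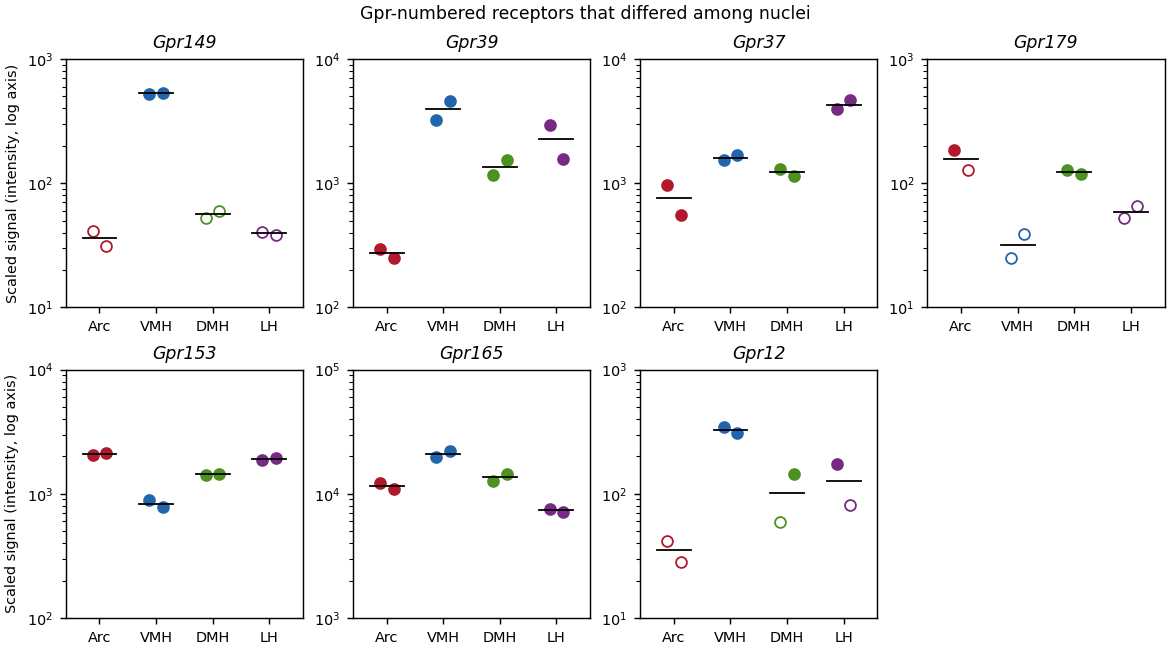
Scaled signal intensity (log axis) of 7 receptors that differed among the nuclei, on each of the 2 arrays of the Arc, VMH, DMH, and LH. Filled points were well above background, open points were not, and lines mark the mean of a nucleus. *Gpr149* was measured on the VMH arrays only, and *Gpr37* was highest on both LH arrays.

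The differences between pairs of nuclei named the same genes and a few more. The VMH exceeded the Arc in 5 receptors (among them *Gpr149*, *Gpr39*, *Gpr12*, and *Gpr26*, background 3.52%), and the Arc exceeded the VMH in 3 (among them *Gpr179* and *Gpr153*, background 2.4%). The LH exceeded the Arc in 4 (among them *Gpr39*, *Gpr37*, and *Gpr146*, background 6.02%), and the Arc exceeded the LH in 2 (*Gpr179* and *Gpr6*, background 3.33%). The DMH exceeded the Arc in 2 (among them *Gpr39*, background 0.727%), and the Arc exceeded the DMH in 0 (background 0.533%). For the Arc and the VMH, whose total was 8, it was 3 without Arc1, 4 without Arc2, 3 without VMH1, 4 without VMH2, and 13 without LH1. For the Arc and the LH, whose total was 6, it was 3 without Arc1 and 2 without Arc2, and for the Arc and the DMH, whose total was 2, it was 0 without Arc1, Arc2, or DMH2 and 1 without VMH1, VMH2, or DMH1. *Gpr26* was named after its values were seen.

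Among the other 3 pairs of nuclei, the VMH exceeded the DMH in 1 receptor (*Gpr149*, background 1.1%), and the DMH exceeded the VMH in 1 (*Gpr179*, background 0.945%). The VMH exceeded the LH in 2 (*Gpr149* and *Gpr165*, background 2.24%), and the LH exceeded the VMH in 2 (*Gpr37* and *Gpr153*, background 3.04%). The LH exceeded the DMH in 1 (*Gpr37*, background 0.664%), and the DMH exceeded the LH in 0 (background 0.26%). For the VMH and the DMH, the total was 1 without VMH1, VMH2, or DMH1 and 5 without LH1 or LH2, for the VMH and the LH it was 1 without VMH1 or VMH2, and for the DMH and the LH it was 2 without LH1 and 0 without any 1 array of the Arc, VMH, or DMH. Without scaling, the Arc exceeded the LH in 0 and the LH the Arc in 4, the VMH exceeded the DMH in 1 and the DMH the VMH in 2, and the VMH exceeded the LH in 2 and the LH the VMH in 0. Quantile normalization gave 1 and 5 for the Arc and the LH and 1 and 2 for the VMH and the DMH, and the normexp correction gave 1 and 4 for the Arc and the LH and 2 and 1 for the VMH and the DMH.

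The receptor differences from the LH were followed without each LH array, in limma adjusted p-values. The remaining LH array is then assumed to vary like the arrays of the other nuclei. Without LH1 and without LH2 in turn, the count of receptors that passed was 6 and 7 for the Arc and the LH, 3 and 6 for the VMH and the LH, and 2 and 1 for the DMH and the LH. *Gpr39* between the LH and the Arc gave 0.00709 and 0.00212, and *Gpr146* gave 0.0329 and 0.0432. Between the VMH and the LH, *Gpr149* gave 0.00166 and 0.000832, *Gpr165* gave 0.0170 and 0.0162, and *Gpr153* gave 0.0301 and 0.0279. These p-values all lay under the threshold, and some of those of *Gpr37*, *Gpr6*, and *Gpr179* did not, as given with each gene.

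As a measure that uses no test, both arrays of a nucleus lay above all 6 other arrays for 9 receptors in the VMH (background 8.13%), 4 in the LH (background 12.2%), 3 in the DMH (background 2.2%), and 2 in the Arc (background 8.65%). The 9 of the VMH were *Gpr149*, *Gpr39*, *Gpr12*, *Gpr165*, *Gpr26*, *Gpr83*, *Gpr85*, *Gpr137*, and *Gpr162*, of which *Gpr83* and *Gpr137* are named after their values were seen. Of these, *Gpr149*, *Gpr12*, and *Gpr83* entered the tests through the VMH only. In the count of the DMH, *Gpr151* and *Gpr21* entered through the DMH only, so the filter partly set these counts. The study selected genes by a ratio of at least 10-fold to every other nucleus, and by that criterion 0 receptors were selected, against 0.228% of all probes. *Gpr149* was not above background outside the VMH, so its ratio to the other nuclei is known only as a bound and cannot be set against 10-fold.

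**Figure D2:**
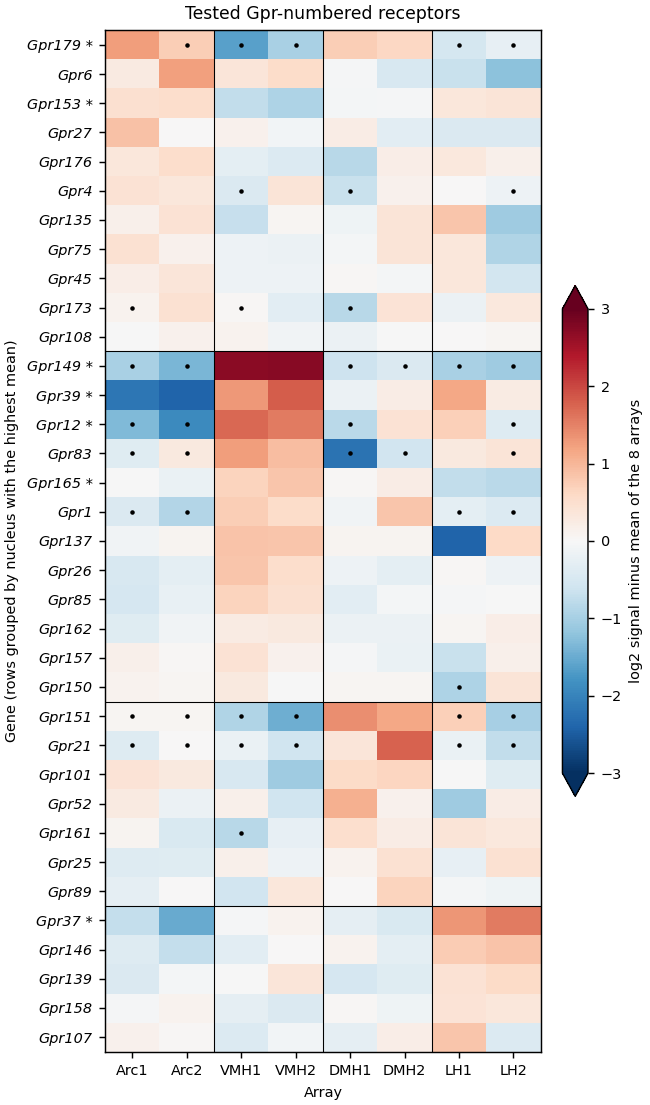
Signal of 35 of the 38 tested receptors on each of the 8 arrays, as the log2 signal minus the mean log2 signal of that receptor over the 8 arrays (color scale), with rows grouped by the nucleus of the highest mean. Dots mark arrays on which the probe was not well above background and asterisks mark 7 receptors that differed. The highest cells of *Gpr149* lie in the VMH and those of *Gpr37* in the LH, whereas *Gpr137* is set apart by LH1 alone.

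*Gpr149*, an orphan receptor best known from oocytes, was measured in the VMH only. Its probe (A_51_P111669) had signals of 527 on VMH1 and 534 on VMH2, against 41.2 and 31.3 in the Arc, 52.7 and 59.4 in the DMH, and 40.7 and 38.3 in the LH. The VMH arrays lay above the other 6, and the other values lie in the background and give only bounds. A bound sets the mean of the bright nucleus against, on each dim array, the lowest signal that any measured probe had there or the signal of the probe itself, whichever was higher, in means of log2 signals. By this bound the VMH was at least 4.69-fold higher than the Arc and at least 5.66-fold higher than the DMH. Over the LH it was at least 5.18-fold higher. The limma tests took the signals as measured, background values included, and not the bounds. Their adjusted p-values were 0.000431 for the VMH against the Arc, 0.00118 against the DMH, and 0.000548 against the LH. The F-test gave an adjusted p of 0.000747, or 0.00307 when dim signals were raised to the lowest measured one.

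*Gpr39*, a receptor that zinc ions activate, varied the most among the receptors measured on every array. The signals were 3227 and 4629.6 in the VMH, 2951 and 1554 in the LH, 1159 and 1525 in the DMH, and 294 and 249 in the Arc. Both Arc arrays lay far below the other 6, and both VMH arrays lay above them, but the LH arrays differed from each other and LH2 fell beside the DMH. The mean was 3928 ± 992 (SD, n = 2) in the VMH and 272 ± 32.2 in the Arc, a ratio of 14.5. The log2 difference from the Arc was 3.84 in the VMH (SE 0.36, limma adjusted p = 0.00247), 2.98 in the LH (SE 0.36, adjusted p = 0.00465), and 2.30 in the DMH (SE 0.36, adjusted p = 0.0353). The VMH, LH, and DMH were not separated by the test, with an adjusted p of 0.104 between the VMH and the DMH and 0.235 between the VMH and the LH.

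The constitutively active receptors *Gpr3*, *Gpr6*, and *Gpr12* raise cyclic AMP through Gs without a known need for a ligand, and they differed from each other in these nuclei. *Gpr12* had signals of 347 and 309.7 in the VMH, 173 and 80.6 in the LH, 59.7 and 143 in the DMH, and 41.8 and 28.2 in the Arc. It was measured on both VMH arrays, on LH1 and DMH2, and on no Arc array, and the VMH lay above all other arrays. By the bound, the VMH was at least 2.90-fold higher than the Arc. The limma test of the signals as measured gave an adjusted p of 0.0144, and the F-test one of 0.0363. This call was lost without any 1 of the arrays Arc1, Arc2, VMH1, or VMH2, where the adjusted p was 0.123, 0.162, 0.164, and 0.134, and it was also lost with no filter on dim probes (0.0557) and in the fit blocked by replicate number (0.0595).

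*Gpr6* was measured on every array and had another order. Its signals were 1368 and 2689.7 in the Arc, 1461 and 1657 in the VMH, 1117 and 818 in the DMH, and 720.0 and 485 in the LH. The LH arrays lay below the other 6, while the Arc and VMH arrays overlapped. The Arc exceeded the LH by 1.70 on the log2 scale (SE 0.37, limma adjusted p = 0.0359), or by 1.98 without LH1 (adjusted p = 0.0329) and 1.41 without LH2 (adjusted p = 0.0898), but the F-test gave an adjusted p of 0.0854. Without scaling, the difference of *Gpr6* between the Arc and the LH did not pass. *Gpr3* was measured on no array, with signals from 20.1 to 40.7.

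Among the receptors with a proposed peptide, amino acid, or ion ligand, 5 of 8 were tested and 2 differed, *Gpr39* and *Gpr37*. *Gpr37*, for which prosaposin-derived peptides are a proposed ligand, is made by oligodendrocytes, the cells that form myelin, as well as by neurons. Its signals were 3937 and 4646 in the LH, 1528 and 1681 in the VMH, 1298 and 1153 in the DMH, and 962 and 554 in the Arc. Both LH arrays lay above all others, and both Arc arrays below.

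The log2 difference of *Gpr37* between the LH and the Arc was 2.55 (SE 0.29, limma adjusted p = 0.00404, or 0.00786 without LH1 and 0.00935 without LH2). That between the LH and the DMH was 1.81 (SE 0.29, adjusted p = 0.0488), and that between the LH and the VMH was 1.42 (SE 0.29, adjusted p = 0.04). Neither of the latter passed without scaling. The difference from the DMH also did not pass with quantile normalization, from the deposited table, with no filter, with outlier spots kept, or with the replicate block. Without LH1 and without LH2, the log2 difference from the DMH was 1.92 and 1.69, with an adjusted p of 0.0452 and 0.0575. That from the VMH was 1.54 and 1.30, with an adjusted p of 0.0540 and 0.0790. The F-test gave an adjusted p of 0.0114, and it was at most 0.0428 under every limma setting tried, with values of 0.0192 without LH1 and 0.0273 without LH2.

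The oligodendrocyte markers had the same high nucleus. Of the list *Mbp*, *Mog*, *Mag*, *Mobp*, *Cnp*, and *Ugt8a*, all 6 genes differed, 8 of the 10 probes differed, and 8 were highest in the LH. The summed signal of the list was 101142 and 111109 in the LH, 32258 and 41717.5 in the VMH, 29686 and 28102.5 in the DMH, and 21689 and 16352 in the Arc. *Gpr37* in the LH was 3.59 times the mean of the other 3 nuclei, which compares with 5.58 for *Mag*, 6.76 for *Mog*, 7.60 for *Ugt8a*, and 4.21 for *Cnp*. The 3 probes of *Mobp* had ratios of 6.69, 7.12, and 21.1, and those of *Mbp* had 2.94, 0.712, and 0.495. The part of these cells in the *Gpr37* difference was not tested, and in tissue samples of this kind fewer cells of a type and less RNA per cell cannot be told apart.

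**Figure D3:**
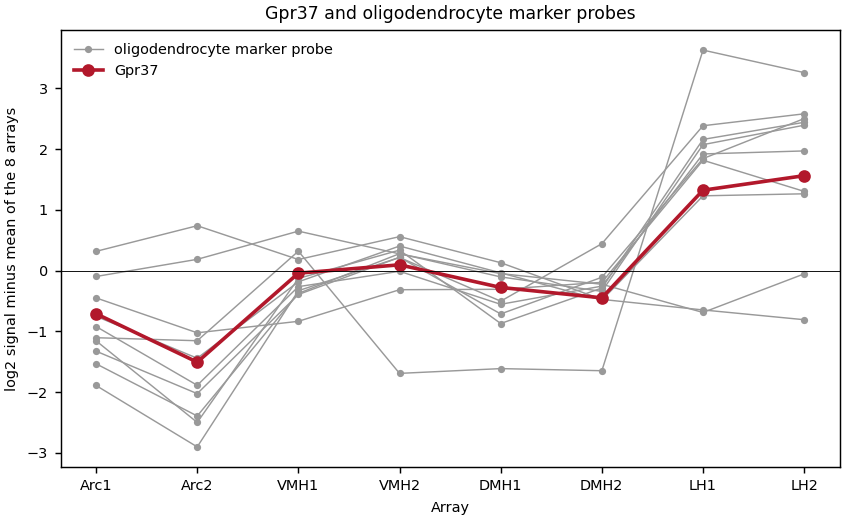
Log2 signal of *Gpr37* (red) and of the 10 oligodendrocyte marker probes (gray) on each of the 8 arrays, each minus its own mean over the arrays. *Gpr37* and 8 of the 10 marker probes were highest in the LH, and the other 2, both of *Mbp*, were not.

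The other 3 receptors of this group that were tested did not pass the F-test. *Gpr139*, proposed to sense aromatic amino acids, had 1032 and 1131 in the LH, above the 6 other arrays at 539 to 979, with an F-test adjusted p of 0.125. *Gpr83*, a peptide receptor, was measured on both VMH arrays at 217 and 174 and otherwise on LH1 only, and the adjusted p was 0.0859. *Gpr1*, which binds chemerin, was measured in the VMH at 188 and 166 and in the DMH at 106 and 202, and the adjusted p was 0.121. *Gpr15*, *Gpr142*, and *Gpr171* were measured on no array. *Gpr1* and *Gpr139* were named after their values were seen.

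Among the class C receptors, which are relatives of the metabotropic glutamate and GABA-B receptors, all 3 genes were tested and 1 differed. *Gpr179*, known from the retina, had signals of 184 and 128 in the Arc, 128 and 119 in the DMH, 53.0 and 65.2 in the LH, and 24.9 and 38.9 in the VMH. It was measured on Arc1 and both DMH arrays only, so every value lay close to the background. The Arc exceeded the VMH (limma adjusted p = 0.00761) and the LH (adjusted p = 0.0331, or 0.0747 without LH1 and 0.0439 without LH2), but with Arc2 not above background no fold is given. Without scaling, the difference between the Arc and the LH did not pass. By the bound, the DMH was at least 1.19-fold higher than the VMH. The limma test of the signals as measured, background values included, gave an adjusted p of 0.0222. The F-test adjusted p was 0.0131, but 0.512 when dim signals were raised to the lowest measured one, 0.105 with the normexp correction, 0.0550 without Arc1, and 0.0597 without VMH1.

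*Gpr158*, which is abundant in neurons and binds the RGS7 complex, spanned only 212 to 381 over the 8 arrays. Its LH arrays, at 381 and 361, lay above the other 6, with an F-test adjusted p of 0.192.

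Among the class A orphans, 27 genes had a probe, 18 were tested, and 4 differed. Besides *Gpr149*, these included *Gpr165* and *Gpr153*, which were measured on every array and differed by smaller steps. *Gpr165*, an X-linked orphan receptor, had signals of 19909 and 22051 in the VMH, 12760.1 and 14547 in the DMH, 12304 and 10888 in the Arc, and 7531 and 7173 in the LH. The VMH lay above and the LH below all other arrays, with the Arc and the DMH between. The VMH exceeded the LH by 1.51 on the log2 scale (SE 0.20, limma adjusted p = 0.00935), and the F-test gave an adjusted p of 0.0186.

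*Gpr153* ran the other way in the VMH. Its signals were 2072 and 2122 in the Arc, 1884 and 1942 in the LH, 1424 and 1449 in the DMH, and 887 and 779 in the VMH, so the 4 nuclei did not overlap and the 2 arrays of each lay close together. The Arc exceeded the VMH by 1.34 on the log2 scale (SE 0.19, limma adjusted p = 0.0098) and the LH exceeded it by 1.20 (adjusted p = 0.0167). The F-test adjusted p was 0.0178. For *Gpr153* and *Gpr165* the F-test no longer passed without scaling, at 0.124 and 0.0614. It also no longer passed when any 1 array of the Arc, VMH, or DMH was left out, with adjusted p-values of 0.0816, 0.0812, 0.0852, 0.103, 0.0531, and 0.0523 for *Gpr153* without Arc1, Arc2, VMH1, VMH2, DMH1, and DMH2, and of 0.0658, 0.0671, 0.0837, 0.0906, 0.0506, and 0.0511 for *Gpr165*.

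*Gpr101*, a Gs-coupled receptor linked to excess growth hormone in people, lay just outside the threshold. It had 12767 and 13253 in the DMH, 11362 and 10476 in the Arc, 8439.7 and 6657 in the LH, and 6159.8 and 4083 in the VMH. The DMH arrays were the highest and the VMH arrays the lowest, with no overlap between the nuclei. The F-test gave an adjusted p of 0.0526, and the difference between the DMH and the VMH was 1.38 on the log2 scale (SE 0.26, limma adjusted p = 0.0523). It passed the F-test without LH1 (0.0395), without LH2 (0.0460), and in 5 other settings.

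*Gpr146*, which has been tied to blood cholesterol, followed next with an F-test adjusted p of 0.0552. Its signals were 2099 and 2256 in the LH, 1352 and 1017 in the DMH, 1000.0 and 1248 in the VMH, and 956 and 757 in the Arc. Both LH arrays lay above the others, and the LH exceeded the Arc by 1.36 on the log2 scale (SE 0.25, limma adjusted p = 0.0194). The second probe of *Gpr146* was measured on no array, so the gene rests on 1 probe.

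Among the receptors with their highest mean in the DMH, the orphans *Gpr151*, *Gpr21*, and *Gpr52* exceeded the next nucleus by the largest ratios, dim signals included. *Gpr151*, a receptor typical of the habenula, had 141 and 119 in the DMH and was measured on no other array, and its signals elsewhere ran from 19.1 to 87.8. The F-test gave an adjusted p of 0.0959, or 0.237 with the normexp correction and 0.824 when dim signals were raised to the lowest measured one. *Gpr21* was also measured in the DMH only, at 120.3 and 321, against 56.5 to 94.2 elsewhere. Its adjusted p was 0.183, and DMH2 alone stood far above the rest. *Gpr52*, a Gs-coupled receptor of the striatum, had 3575 and 1875 in the DMH within an overall range of 822 to 3575, and the adjusted p was 0.523.

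The other class A orphans did not pass the F-test. *Gpr26*, a constitutively active receptor, had 3140.1 and 2556 in the VMH against 1279 to 1811 on the 6 other arrays, with a log2 difference from the Arc of 1.06 (SE 0.21, limma adjusted p = 0.0332) and an F-test adjusted p of 0.0644. *Gpr162* ran from 8588 to 13519 with the VMH arrays on top, and its F-test adjusted p was 0.295. *Gpr25* and *Gpr146* each had a measured probe and another at or near background. The 9 probes of this group measured on no array included those of *Gpr20*, *Gpr22*, *Gpr63*, and *Gpr160*, which were named after their values were seen.

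The brain-conserved SREB receptors *Gpr27*, *Gpr85*, and *Gpr173* are close relatives of each other that are expressed across the brain, and 0 of the 3 differed. *Gpr85* had 7642 and 6647 in the VMH against 3383 to 4753 on the other arrays, with no overlap. Its F-test adjusted p was 0.104, and the log2 difference of 0.93 between the VMH and the Arc (SE 0.21) had a limma adjusted p of 0.0534. *Gpr27* ran from 1499 to 3731, with LH lowest and Arc1 highest, and an adjusted p of 0.378. *Gpr173* was measured on 5 arrays, between 73.7 and 181 in all, and its adjusted p was 0.772.

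The proton-sensing receptors answer to a fall in pH outside the cell, and 0 of the 2 tested differed. *Gpr4*, mostly a receptor of blood vessels, was measured on both Arc arrays at 208 and 194 and on 3 other arrays, with an adjusted p of 0.574, while its second probe was measured on no array. *Gpr65* and *Gpr132*, receptors of immune cells, were measured on no array, at signals of at most 41.9.

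Receptors with lipid or metabolite ligands were nearly all below detection. The 6 genes *Gpr18*, *Gpr35*, *Gpr55*, *Gpr119*, *Gpr174*, and *Gpr183* had 9 probes, of which 8 were measured on no array and 0 were tested. Several of these receptors are known from immune cells, and *Gpr119* from the pancreas and gut. A signal at background on 2 arrays a nucleus does not show that the gene is silent, since a receptor made by few cells can stay under the detection of an array.

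The multi-pass membrane proteins that share the *Gpr* name, among them the Golgi-linked *Gpr107*, *Gpr108*, and *Gpr89*, had 7 genes with 5 tested and 0 that differed. *Gpr157* ran from 45321 to 95895 with overlapping nuclei and an F-test adjusted p of 0.569. *Gpr108* spanned 2402 to 2978 with an adjusted p of 0.905. *Gpr137* had 6893 and 6771 in the VMH but 726 on LH1 against 5736 on LH2, and its adjusted p was 0.506. It was 0.00241 without LH2 and 0.0668 without LH1. *Gpr107* and *Gpr108* were named after their values were seen.

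The spread over the nuclei was summarized as a description. The median difference between the highest and the lowest nucleus was 0.97 on the log2 scale over the 38 receptors and 0.65 over all probes tested, and over those measured on every array it was 0.90 and 0.57. Replicate arrays had a median absolute difference of 0.30 for the receptors and 0.28 for all probes. These medians carry no test.

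**Figure D4:**
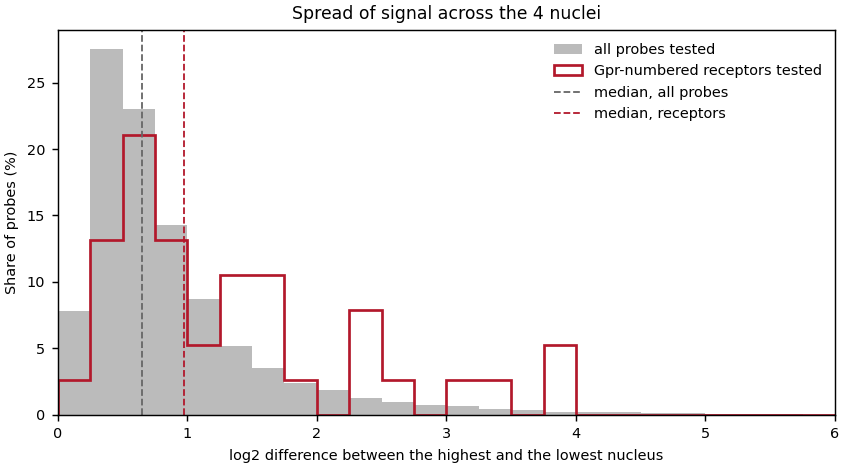
Share of probes (%) by the log2 difference between the nucleus with the highest and that with the lowest mean, for the 38 tested receptors (red outline) and all tested probes (gray), with dashed lines at the medians of 0.97 and 0.65. The median of the receptors lies to the right of that of all probes, and the place of *Gpr149* at the far end rests on signals that were not above background outside the VMH.

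Other cell types also varied among the nuclei. The neuronal list *Snap25*, *Syt1*, *Rbfox3*, *Tubb3*, and *Stmn2* had a summed signal of 207598 and 184814 in the VMH, 140229 and 141360 in the Arc, and 154702 and 158750 in the DMH, and of 169634 and 176068 in the LH, where LH1 lacks the *Stmn2* spot. Of its 7 probes, 3 differed, all of *Rbfox3* and all highest in the VMH. The list for ependymal cells and tanycytes had a summed signal of 6403 and 6552 in the Arc and 1204 to 1946 elsewhere. Among the lists for other cells, 0 of 10 microglial, 1 of 6 endothelial, and 2 of 8 astrocyte probes tested differed, and both astrocyte probes were of *Gfap*, highest in the Arc. The choroid plexus list had 3 of 3 probes that differed, with 1798 to 3440.2 in its sum outside the LH and 662 and 833 in the LH, and of the anterior pituitary list *Pomc*, which Arc neurons also make, was the 1 probe tested. The part of these cells in the receptor differences was not tested.

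Of 35 tested probes for the signaling partners of the receptors, that is G protein alpha subunits, adenylyl cyclases, and receptor kinases and arrestins, 4 differed by the F-test, against the 8.34% of all probes, or 2 without Arc1 or Arc2. Of 18 alpha subunit probes 2 differed, both of *Gnas*, which encodes the Gs subunit. Both were lowest in the VMH, and they differed in the nucleus of the highest mean. A probe of *Gnas* (A_52_P190394) was highest in the Arc, at 742 and 574, with 28.5 and 18.2 in the VMH, where it was not above background. Another (A_55_P2081323) was highest in the LH, at 14802 and 14470.2, with 6669 and 6675 in the VMH. The third *Gnas* probe tested (A_55_P2081313) did not differ by the test, with means from 14964 to 16242 and an F-test adjusted p of 0.982. *Gnas* has several transcripts, and which of them each probe detects was not examined.

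Of 11 adenylyl cyclase probes 1 differed, that of *Adcy7*, with 1474 and 1815 in the DMH and 1407 and 1728 in the LH against 333 to 555 in the Arc and the VMH (F-test adjusted p = 0.0054 by limma). Of 6 probes for kinases and arrestins 1 differed, that of *Arrb1*, which encodes a beta-arrestin. Its signals were 10951 and 12141 in the Arc and 23403 to 34989 elsewhere (limma adjusted p = 0.0126). Both Arc arrays lay below the other 6, as they did for *Gpr39*, *Gpr37*, and *Gpr12*.

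The regions before the transcription start of the receptors were compared for short motifs. RefSeq promoters (GRCm38.p6) were at hand for 44 of the 61 genes, 57 promoters in all, and for 6 of the 8 genes that differed, with none for *Gpr149*. The 250 bases before the start are shown for *Gpr39*, *Gpr12*, and *Gpr165*, which were highest in the VMH, and for *Gpr37*, which was highest in the LH. They lie at chr1:125676746-125676995 on the plus strand, chr5:146585240-146585489 on the minus strand (the more upstream of 2 starts), chrX:96713218-96713467 on the plus strand, and chr6:25689981-25690230 on the minus strand. Each is written 5′ to 3′ along the gene, and capitals mark matches to the motifs named after them.
Gpr39: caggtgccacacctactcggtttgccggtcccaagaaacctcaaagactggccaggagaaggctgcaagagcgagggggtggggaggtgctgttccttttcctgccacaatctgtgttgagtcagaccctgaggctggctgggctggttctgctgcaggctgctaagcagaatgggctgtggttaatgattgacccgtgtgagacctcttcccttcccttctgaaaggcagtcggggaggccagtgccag
Gpr12: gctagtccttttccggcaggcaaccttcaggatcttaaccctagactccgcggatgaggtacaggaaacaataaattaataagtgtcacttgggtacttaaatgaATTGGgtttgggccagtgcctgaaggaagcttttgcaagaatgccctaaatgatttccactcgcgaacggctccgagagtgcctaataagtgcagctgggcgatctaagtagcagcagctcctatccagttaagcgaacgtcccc
Gpr165: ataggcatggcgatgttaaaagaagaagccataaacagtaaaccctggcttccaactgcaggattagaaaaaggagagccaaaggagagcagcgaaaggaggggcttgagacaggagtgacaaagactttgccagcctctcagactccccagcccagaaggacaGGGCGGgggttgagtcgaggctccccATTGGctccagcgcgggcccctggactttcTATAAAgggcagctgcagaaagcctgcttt
Gpr37: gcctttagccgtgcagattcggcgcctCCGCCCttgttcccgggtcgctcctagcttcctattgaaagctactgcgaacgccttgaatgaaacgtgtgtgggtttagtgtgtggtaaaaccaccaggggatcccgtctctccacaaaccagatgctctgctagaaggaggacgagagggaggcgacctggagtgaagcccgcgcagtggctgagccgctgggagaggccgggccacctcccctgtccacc

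The motifs were searched on both strands in the same 250 bases of all 32851 promoters. The NR5A motif AAGGTCA, to which factors of the family of *Nr5a1* bind, was in 4.08% of all promoters and in 4 of the 57 receptor promoters, those of *Gpr1*, *Gpr82*, *Gpr132*, and *Gpr161*. The cyclic AMP response element TGACGTCA was in 1.55% and in 1 receptor promoter, that of *Gpr6*, and the NK2 motif CACTTGA was in 2.68% and in 2, those of *Gpr15* and *Gpr146*. None of these 3 motifs was in the 8 promoters of the receptors that differed, which says only that these letters do not occur in these windows. Among general promoter motifs, the TATA box (TATAAA) was in 12.4% of all promoters and in 6 receptor promoters. The CCAAT box was in 33.8% and in 23, and the GC box (GGGCGG) was in 32.7% and in 18.

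In the sequences shown, *Gpr165* holds all 3 general motifs, with a TATA box at position -30, a CCAAT box on the other strand at -60, and a GC box at -86, counted from the start site to the first base of the match. *Gpr37* holds a GC box on the other strand at -223, that of *Gpr12* a CCAAT box on the other strand at -145, and *Gpr39* holds no match. The GC content was 54.4% for *Gpr165*, 60.8% for *Gpr37*, 48.8% for *Gpr12*, and 58.4% for *Gpr39*. A match is a description of the sequence and not a binding site.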

How the data were processed

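Gene expression in 4 hypothalamic nuclei was measured on 8 arrays in 1 color, and each array was mapped to its nucleus by its label. The authors deposited, for every spot, a processed signal intensity from Agilent Feature Extraction on a linear scale, after background subtraction and without scaling between arrays. The software version is 10.7.3.1 in the file headers and 11.5.1.1 in the labels, and the files hold the red channel, which matches the Cy5 of the methods and not the Cy3 of the labels. The authors also deposited these signals as 1 table, rounded to whole numbers.

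After removal of spots with an outlier mark, the spots of a probe were averaged. The 75th percentile of the probes on an array (815 to 1239 over the arrays) served as its divisor, with all divisors rescaled to a geometric mean of 1, and log2 was taken. The tests took in the 28896 probes that were called well above background on both arrays of 1 nucleus or more, and a signal below background entered with its value. The counts of arrays lying above all others used the 28765 probes with a value on every array. A linear model of the nucleus means was fitted with limma 3.58.1 in R 4.3.3 (4 residual and 3.02 prior degrees of freedom), and the Benjamini-Hochberg adjustment ran over all probes tested, with a threshold of 0.05. The number of arrays limits the precision. Of 28390 probes with a RefSeq accession, 26762 (94.3%) were named through GRCm38.p6. In a simulation of 28765 probes with normal noise, 100 were raised 4-fold and 100 were raised 16-fold in the VMH. The F-test called 69% of those raised 4-fold, 95% of those raised 16-fold, and 0.0245% of the unchanged ones. More probes differed in the data, so these rates need not hold there.

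The receptors, the gene lists, and the motifs were chosen with earlier results of these data known. The receptors named are those past the F-test, for each nucleus the 3 that exceeded the next nucleus by the largest ratio (dim signals included), the 5 with the highest mean signal, and all members of the constitutively active, proton-sensing, SREB, and class C lists, and some that these rules take are counted but not reported here. For comparison, the results were computed again with quantile normalization or no scaling, with the normexp background correction (offset 50), from the deposited table, with no filter or a filter that required all 8 arrays, with the outlier spots, with dim signals set to the lowest one measured, with trended and robust moderation, with a block for the replicate number, with every array left out singly, with the unmoderated test that the statistics section of the study gives for more than 2 groups, and minimums of 5-fold and 20-fold in place of 10-fold.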

Additional observations from a re-analysis of the deposited data

How the results depend on the processing

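Of the receptors that differed, *Gpr149*, *Gpr39*, and *Gpr37* passed the F-test under every limma setting in which they were tested, and *Gpr149* was not tested with the filter on all 8 arrays. The count of 8 was 13 with trended and robust moderation, 3 by the unmoderated test of the study (*Gpr149*, *Gpr153*, and *Gpr165*, with *Gpr39* at an adjusted p of 0.0732 and *Gpr37* at 0.0875), and 3 to 11 with 1 array left out. Leaving out 1 array gave 3 to 13 receptors for the Arc against the VMH, 0 to 2 for the Arc against the DMH, 2 to 7 for the Arc against the LH, 1 to 5 for the VMH against the DMH, 1 to 6 for the VMH against the LH, and 0 to 2 for the DMH against the LH, and 2 to 4 probes of the signaling lists and 0 to 1 receptors past 10-fold. For the VMH against the LH the count was 2 without scaling and 7 with trended moderation. For the DMH against the LH it was 0 without scaling, with quantile normalization, with the deposited table, with no filter, and with outlier spots kept, and 2 with trended moderation. For the Arc against the DMH it was 1 with no filter and 1 with the filter on all 8 arrays, where the VMH against the DMH also gave 1. The signaling lists gave 7 probes with normexp and 8 with trended moderation, and 1 receptor, *Gpr149*, passed 5-fold by its background signals elsewhere, a ratio that was 2.60 with normexp, and its bound over the Arc was 4.69, so 5-fold over every nucleus is not shown. The cause of these shifts was not tested.

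With the replicate number as a block, 7 receptors passed the F-test, with *Gpr12* lost at an adjusted p of 0.0595, and the Arc against the DMH gave 1 and the DMH against the LH 0. Replicate numbers coincide with the row of the slide, and the correlation of the replicate differences between nuclei ranged from -0.03 to 0.26, so a pairing of the samples by number was not shown, and the mouse behind each array is not known. Without scaling, the median log2 difference over all probes tested was -0.46 between the Arc and the DMH and 0.33 between the DMH and the LH, against 0.02 and 0.01 with it. Of 406 values of receptors taken by the naming rule under alternatives, 362 stayed on their side of the threshold, 19 moved past it, and 25 dropped below it. Values that passed the threshold kept their sign, and among those that did not, the Arc minus DMH difference (log2) changed sign for 2 receptors, among them *Gpr173*, from 0.50 to -0.12 without DMH1.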
